A study of Mus musculus with 12 samples.

Results

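The matrix metalloproteinases and the tissue inhibitors that block them were examined in mouse endometrium as a set of 10 genes, Mmp2, Mmp3, Mmp7, Mmp9, Mmp10, Mmp11, Mmp14, Timp1, Timp2 and Timp3. Each was found by its symbol among the transcript clusters of an Affymetrix Mouse Gene 1.0 ST array, and each had 1 transcript cluster with that single symbol, so that all 10 of 10 were measured among 19938 genes with 1 symbol. The values are log2 expression values as deposited, on 12 arrays. None of the 10 genes passed the test in any comparison of the 3 groups, and for 5 of them, Mmp2, Mmp7, Mmp11, Timp2 and Timp3, the 4 unmated control pools spread over 2.96-fold to 8.27-fold, more than the pools of either mated group. Mmp9, Mmp10, Mmp14 and Timp1 also spread most among controls, over smaller ranges. Controls were wider in general, with a median range over all transcript clusters of 0.32 log2 units against 0.25 in each mated group.

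The females were CBAF1, the F1 cross of CBA and C57Bl/6. Of the 12 arrays, 4 held pools from females that had mated with intact BALB/c males 8 h earlier. A further 4 held pools from females that had mated 8 h earlier with Vasectomised BALB/c males, and 4 held pools from virgin, unmated females. In Vasectomised males the vas deferens was ligated and cut. The authors state that such an ejaculate lacks sperm and also the secretions of testis, epididymis and vas deferens. Females were 9 to 16 weeks of age and males 12 to 28 weeks. Each pool joined endometrial RNA of 4 females, 16 per group, so the spread between arrays is a spread between pools. For the unmated females the protocol gives pro-estrus, at 2000 h, whereas their label says estrus, so mating and the stage and hour of collection cannot be told apart in comparisons with controls.

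Matrix metalloproteinases are zinc-dependent endopeptidases that cut collagen, laminin, fibronectin and other proteins of the extracellular matrix, and also shed or cut cytokines and growth factors. Most are secreted as inactive proenzymes and are activated outside the cell by plasmin or by each other. Some, such as Mmp11, are activated inside the cell by furin. TIMPs bind the active site and hold the enzymes in check. In the cycling and early pregnant uterus the enzymes take part in tissue remodelling, and ovarian steroids and inflammatory cytokines are known regulators.

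The mean log2 level of 9 epithelial markers was 11.74 to 11.80 in intact-mated, 11.70 to 11.75 in vasectomized-mated and 11.64 to 11.77 in control pools. Its members were not all even, since Cldn7 averaged 12.05 ± 0.03, 11.72 ± 0.11 and 11.50 ± 0.12 (SD, n = 4) in these groups, and 5 of the 9 had an unadjusted limma p under 0.05 between the mated groups, beside 17.2% of all transcript clusters. The stromal markers Pdgfra, Hoxa11 and Hand2 were measured in all. Control pools 1 and 2 stood apart from control pools 3 and 4 on the second principal component of all transcript clusters, at 11.02 and 16.68 against -31.30 and -22.00. The same pools differed in the mean log2 level of 9 stromal markers, which was 9.70, 9.71, 8.83 and 8.70 in control pools 1 to 4. This list ran from 8.36 to 9.13 in intact-mated and from 8.70 to 9.27 in vasectomized-mated pools. The mean of 6 blood endothelial markers was 8.12, 8.12, 7.17 and 7.09 in control pools 1 to 4, and that of 9 macrophage markers was 8.31, 8.29, 7.66 and 7.45. In such bulk RNA, fewer cells of a type and less RNA per cell cannot be told apart.

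Calls were made in limma, with 1 mean per group over all 12 arrays. A call needed a change of 1.5-fold or more together with a p of 0.05 or less after Benjamini-Hochberg correction over all 35556 transcript clusters. Of the 10 genes 0 were called in intact-mated against control females, where 3.49% of all transcript clusters were called (1.95% higher and 1.55% lower). None was called in vasectomized-mated against control females, beside 1.43% of all clusters (0.987% higher and 0.439% lower), nor in intact-mated against vasectomized-mated females, beside 0.796% (0.394% higher and 0.402% lower). A count of 0 in 10 is near these background shares and is no result about the set. At an unadjusted limma p under 0.05 there were 5, 3 and 0 genes, beside 23.0%, 18.9% and 17.2% of all transcript clusters. A fit without variance moderation called 0 genes in each comparison as well, with 4, 1 and 0 at an unadjusted p under 0.05. In none of the 3 comparisons did the groups separate without overlap for any of the 10 genes, while 14.2% of all transcript clusters did so in intact-mated against control females (8.05% higher, 6.18% lower), 10.7% in vasectomized-mated against control females (7.06% higher, 3.62% lower) and 14.0% between the mated groups (6.62% higher, 7.34% lower). The lowest adjusted p among the 10 genes was 0.0875, for Timp1 in intact-mated against control females. The median log2 fold-change of the 10 genes was 0.18, 0.10 and -0.02 in the 3 comparisons, beside 0.0061, 0.0097 and -0.0018 over all clusters. With 4 pools a group, p-values measure only the spread between pools.

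**Figure D1:**
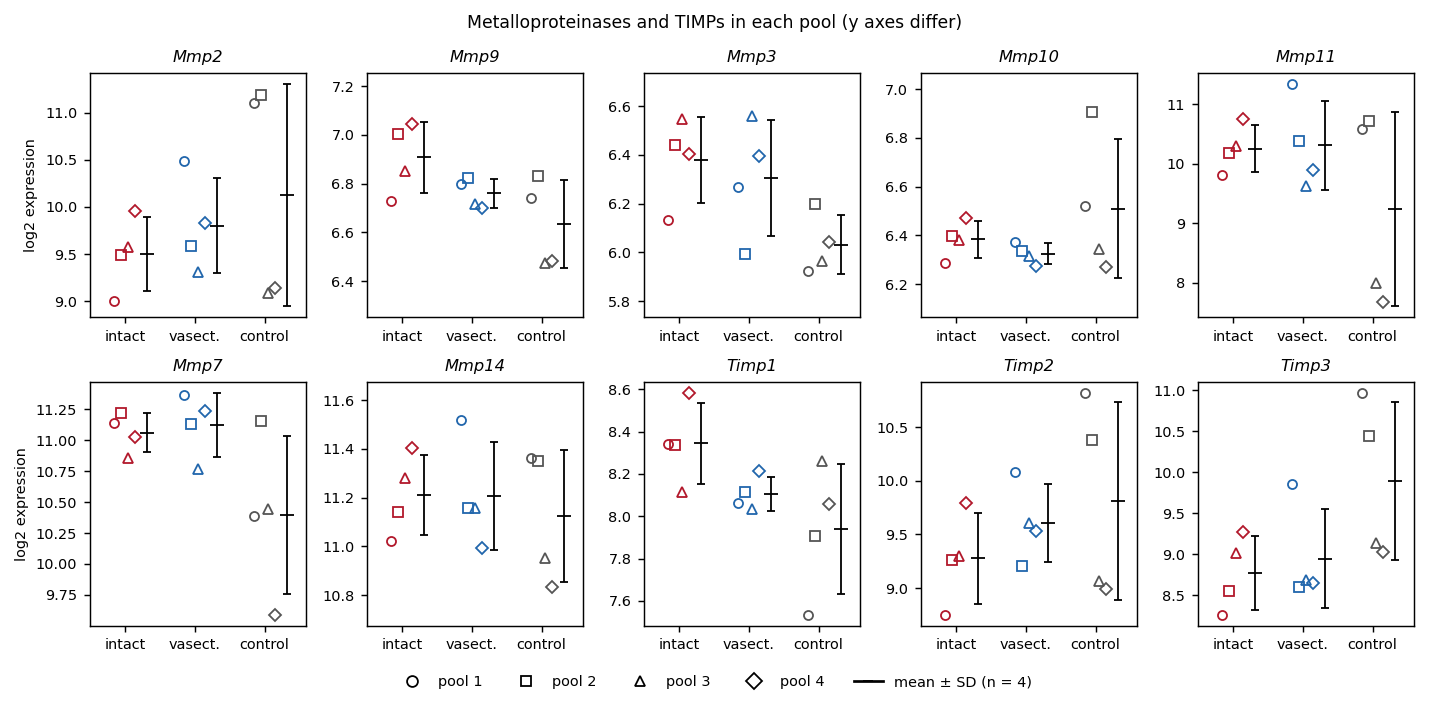
Log2 expression (vertical axis, scaled per panel) of the 10 genes in the 4 pools each of intact-mated, vasectomized-mated (vasect.) and control females. Symbols are pools and black bars are mean ± SD (n = 4), and in every panel the 3 groups overlap, with control pools far apart for Mmp2, Mmp11, Timp2 and Timp3.

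**Figure D2:**
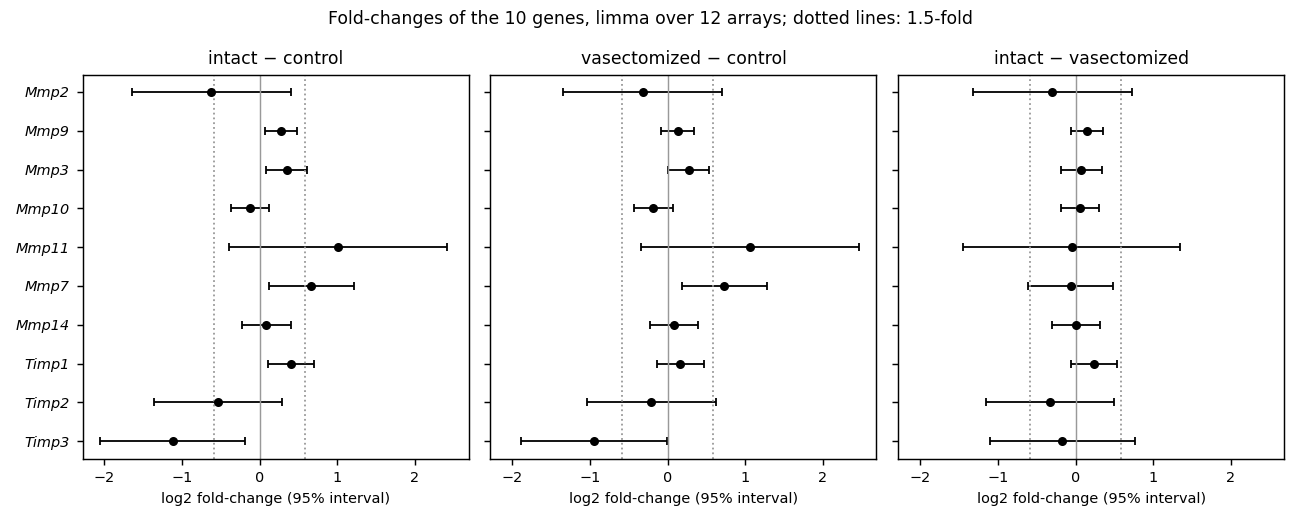
Log2 fold-change with its 95% interval (horizontal axis) for each of the 10 genes (vertical axis) in the 3 comparisons, from limma over 12 arrays. Dotted lines mark 1.5-fold, no gene was called, and the intervals of Mmp11, Mmp2, Timp3 and Timp2 were the widest.

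Mmp2, Mmp14 and Timp2 act together, since the membrane-bound protease MMP14 uses TIMP2 as an adaptor to activate pro-MMP2, gelatinase A, which cuts denatured and basement membrane collagen. Mmp2 had log2 values of 9.0, 9.49, 9.57 and 9.95 in intact-mated pools 1 to 4, 10.49, 9.59, 9.31 and 9.83 in vasectomized-mated pools, and 11.10, 11.18, 9.08 and 9.14 in control pools. Both mated groups lay inside the range of the controls except for intact-mated pool 1, and the controls fell into a high and a low pair, 4.28-fold from the highest to the lowest. The log2 fold-change of Mmp2 was -0.62 in intact-mated against control females (SE 0.47, 95% interval -1.64 to 0.40, limma adjusted p = 0.497) and -0.32 in vasectomized-mated against control females (SE 0.47, limma adjusted p = 0.772). Between intact-mated and vasectomized-mated females it was -0.30, with an interval of -1.32 to 0.72. Only 70 of 35556 transcript clusters had a wider range among the 4 controls than Mmp2.

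Mmp14 was steadier. Its log2 values were 11.02, 11.14, 11.28 and 11.40 in intact-mated pools, 11.52, 11.16, 11.16 and 10.995 in vasectomized-mated pools, and 11.36, 11.35, 10.95 and 10.83 in control pools. The 3 groups covered nearly the same stretch, and the group means of 11.21 ± 0.17, 11.21 ± 0.22 and 11.12 ± 0.27 (SD, n = 4) lay closer together than the pools of any one group. The log2 fold-changes were 0.09 and 0.08 against controls (SE 0.14 each, limma adjusted p = 0.796 and 0.816). Intact-mated and vasectomized-mated females differed by 0.0037 on the log2 scale, with a 95% interval of -0.31 to 0.31 that leaves room for a change of up to 1.24-fold.

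Timp2, which also inhibits most of these enzymes, followed the pattern of Mmp2. It had log2 values of 8.75, 9.27, 9.30 and 9.79 in intact-mated pools, 10.08, 9.21, 9.60 and 9.53 in vasectomized-mated pools, and 10.82, 10.38, 9.07 and 8.99 in control pools. Control pools 1 and 2 were the highest of all 12 arrays and control pools 3 and 4 were among the lowest. The log2 fold-changes were -0.54 (SE 0.38, limma adjusted p = 0.462) and -0.21 (SE 0.38, limma adjusted p = 0.826) in intact-mated and vasectomized-mated females against controls. The mated groups differed by -0.33 (95% interval -1.16 to 0.50, limma adjusted p = 0.723).

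Mmp9, gelatinase B, is stored in neutrophil granules and also made by macrophages. Its log2 values were 6.73, 7.01, 6.85 and 7.05 in intact-mated pools, 6.80, 6.82, 6.72 and 6.70 in vasectomized-mated pools, and 6.74, 6.83, 6.48 and 6.48 in control pools. Of the intact-mated pools 3 were above every control and vasectomized-mated pool, and the first was below 2 of the controls. The log2 fold-change was 0.28 in intact-mated against control females (SE 0.10, limma adjusted p = 0.0963), 0.13 in vasectomized-mated against control females (limma adjusted p = 0.530) and 0.15 between the mated groups (95% interval -0.06 to 0.36, limma adjusted p = 0.468). The mean log2 level of 11 measured neutrophil markers of 12 listed was 7.19 to 7.52 in intact-mated, 6.90 to 7.04 in vasectomized-mated and 6.73 to 6.95 in control pools, and 9 of the 11 lay below the median transcript cluster. Of these markers S100a9, Cxcr2 and Csf3r rose in intact-mated against control females (log2 fold-changes 1.43, 2.25 and 1.14, limma adjusted p = 0.00166, 0.000162 and 0.00460) and were also higher than in vasectomized-mated females (1.17, 1.92 and 1.08, limma adjusted p = 0.0235, 0.00568 and 0.0236). S100a8, the first marker of the list, averaged 6.06 ± 0.28 in intact-mated, 5.57 ± 0.11 in vasectomized-mated and 5.60 ± 0.03 in control pools (SD, n = 4). It was not called in any comparison. The granule genes Mpo, Elane, Camp and Ngp had log2 fold-changes of 0.06, 0.15, 0.04 and 0.09 in intact-mated against control females and were not called. Ly6g, a surface marker of neutrophils, had -0.44 against controls and -0.27 against vasectomized-mated females (limma adjusted p = 0.330 and 0.633), with all intact-mated pools below all vasectomized-mated pools. The part of neutrophils in the Mmp9 values was not tested.

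Mmp3, Mmp10 and Mmp7, the stromelysins 1 and 2 and matrilysin, belong to the row of metalloproteinase genes on mouse chromosome 9, where 10 of the 22 measured Mmp genes lie. Stromelysins cut proteoglycans, laminin and fibronectin and activate other proenzymes, and matrilysin is the small epithelial member, known in the mouse uterus from luminal and glandular epithelium. Windows of 250 bases before to 50 after the annotated start, from RefSeq on build GRCm38.p6, were found for 8 of the 10 genes, Mmp2 and Mmp9 being the others. The windows of these 3 genes are shown because each holds both an AP-1 motif (TGANTCA, either strand) and a TATA box motif (TATAAA, either strand), as do 1.54% of the 32851 windows in the table. The other 5 genes had neither. The AP-1 motif was found in 7.81% of all windows and TATAAA in 13.6%. Capitals mark both motifs, and the second window listed for Mmp7, further downstream, held neither.
Mmp3, chr9:7445572-7445871, plus strand: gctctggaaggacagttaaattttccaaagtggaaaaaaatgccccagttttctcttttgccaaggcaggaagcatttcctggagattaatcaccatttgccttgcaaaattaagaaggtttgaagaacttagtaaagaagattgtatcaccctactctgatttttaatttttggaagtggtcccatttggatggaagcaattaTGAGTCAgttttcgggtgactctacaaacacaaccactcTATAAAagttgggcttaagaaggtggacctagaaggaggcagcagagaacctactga
Mmp10, chr9:7502092-7502391, plus strand: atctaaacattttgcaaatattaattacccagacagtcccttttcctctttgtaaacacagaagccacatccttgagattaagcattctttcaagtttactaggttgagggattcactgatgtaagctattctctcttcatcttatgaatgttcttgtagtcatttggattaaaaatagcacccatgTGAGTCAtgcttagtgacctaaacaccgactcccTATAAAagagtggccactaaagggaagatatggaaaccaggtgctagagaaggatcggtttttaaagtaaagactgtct
Mmp7, chr9:7691840-7692139, plus strand: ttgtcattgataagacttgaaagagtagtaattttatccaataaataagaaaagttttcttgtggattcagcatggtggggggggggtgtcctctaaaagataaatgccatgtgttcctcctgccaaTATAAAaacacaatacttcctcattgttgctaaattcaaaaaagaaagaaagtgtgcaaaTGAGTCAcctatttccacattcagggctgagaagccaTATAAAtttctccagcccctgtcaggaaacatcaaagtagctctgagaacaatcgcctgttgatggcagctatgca
The AP-1 motif began 46, 63 and 63 bases before the annotated start in Mmp3, Mmp10 and Mmp7, and the nearest TATAAA 7, 29 and 26 bases before it. A motif match describes the letters and does not show a bound site.

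Mmp3 had log2 values of 6.13, 6.44, 6.55 and 6.40 in intact-mated pools, 6.27, 5.99, 6.56 and 6.40 in vasectomized-mated pools, and 5.92, 6.20, 5.96 and 6.04 in control pools. In each mated group 3 of 4 pools lay above all controls and 1 did not. The log2 fold-change was 0.35 in intact-mated against control females (SE 0.12, 95% interval 0.08 to 0.61, limma adjusted p = 0.0959) and 0.27 in vasectomized-mated against control females (SE 0.12, limma adjusted p = 0.248). Mmp10 had 6.28, 6.40, 6.38 and 6.47 in intact-mated pools, 6.37, 6.34, 6.31 and 6.27 in vasectomized-mated pools, and 6.52, 6.91, 6.34 and 6.27 in control pools. Only control pool 2 stood away from the rest, and the log2 fold-changes against controls were -0.13 and -0.18 (SE 0.11 each, limma adjusted p = 0.587 and 0.424). Signals of Mmp3, Mmp9 and Mmp10 were dim, with means below the median transcript cluster (7.28).

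Mmp7 was bright, and its mated pools spread less than its controls. It had log2 values of 11.14, 11.22, 10.86 and 11.02 in intact-mated pools, 11.36, 11.13, 10.77 and 11.24 in vasectomized-mated pools, and 10.39, 11.15, 10.45 and 9.59 in control pools. All 8 mated pools were above control pools 1, 3 and 4, and control pool 2 lay among them. The log2 fold-change was 0.66, or 1.58-fold, in intact-mated against control females (SE 0.25, 95% interval 0.12 to 1.21, limma adjusted p = 0.129). It was 0.73, or 1.66-fold, in vasectomized-mated against control females (SE 0.25, 95% interval 0.18 to 1.27, limma adjusted p = 0.138). The mated groups differed by -0.06, with an interval of -0.61 to 0.48. Without control pool 2, Mmp7 was called in both comparisons, at log2 fold-changes of 0.92 in intact-mated and 0.98 in vasectomized-mated against control females (limma adjusted p = 0.0137 and 0.0208). Leaving out any other single array did not bring its call. The epithelial marker lists of the 12 arrays ranged over 11.64 to 11.80, and their part in the Mmp7 values was not tested.

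Mmp11, stromelysin 3, is activated inside the cell by furin and is known from stromal fibroblasts of remodelling tissue. It had log2 values of 9.81, 10.17, 10.29 and 10.75 in intact-mated pools, 11.33, 10.38, 9.63 and 9.89 in vasectomized-mated pools, and 10.58, 10.72, 8.00 and 7.67 in control pools. Control pools 3 and 4 were the lowest of the 12 arrays by more than 1.5 log2 units, while control pools 1 and 2 were within the range of the mated pools. The span of the controls was 3.05 log2 units, or 8.27-fold, and only 7 of 35556 transcript clusters had a wider one. The mean difference from controls was accordingly large and imprecise, with log2 fold-changes of 1.01 in intact-mated (SE 0.65, 95% interval -0.39 to 2.41, limma adjusted p = 0.403) and 1.06 in vasectomized-mated females (SE 0.65, 95% interval -0.34 to 2.46, limma adjusted p = 0.416). Intact-mated and vasectomized-mated females differed by -0.05, with an interval of -1.45 to 1.35, which does not show that the matings acted alike.

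Timp3 differs from the other inhibitors in that it binds the extracellular matrix and also blocks several ADAM proteases. Its log2 values were 8.26, 8.55, 9.01 and 9.27 in intact-mated pools, 9.86, 8.60, 8.69 and 8.65 in vasectomized-mated pools, and 10.97, 10.44, 9.14 and 9.03 in control pools. Control pools 1 and 2 were above all other arrays, and control pools 3 and 4 lay between the mated pools. The log2 fold-change was -1.12 in intact-mated against control females (SE 0.43, 95% interval -2.06 to -0.19, limma adjusted p = 0.133) and -0.95 in vasectomized-mated against control females (SE 0.43, limma adjusted p = 0.258). The mated groups differed by -0.17 (95% interval -1.11 to 0.76, limma adjusted p = 0.884).

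Timp1, a secreted inhibitor that inflammatory cytokines induce in many tissues, ran in another direction. It had log2 values of 8.34, 8.33, 8.12 and 8.58 in intact-mated pools, 8.06, 8.12, 8.03 and 8.21 in vasectomized-mated pools, and 7.54, 7.91, 8.26 and 8.06 in control pools. Of the intact-mated pools 3 exceeded every array of the other groups, and control pools 3 and 4, low in Mmp11 and Timp2, were the higher controls here. The log2 fold-change was 0.40 in intact-mated (SE 0.14, 95% interval 0.11 to 0.70, limma adjusted p = 0.0875) and 0.17 in vasectomized-mated females against controls (SE 0.14, limma adjusted p = 0.572). Intact-mated females were 0.24 above vasectomized-mated females (95% interval -0.06 to 0.54, limma adjusted p = 0.403).

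The 4 genes with the widest control spread are set beside the stromal markers in the plot of pools. In each group the pool with the highest mean of the stromal markers was also the highest for Mmp2, Mmp10 and Mmp11, in 3 of 3 groups. In 2 of 3 groups it was the highest for Timp2, Timp3, Mmp7, Mmp9 and Mmp14, and in 1 of 3 for Mmp3 and Timp1. The pool with the lowest mean was the lowest for Timp2 and Timp3 in 3 of 3 groups. It was the lowest for Mmp3, Mmp10, Mmp11 and Mmp14 in 2 of 3, for Mmp2, Mmp7 and Mmp9 in 1 of 3 and for Timp1 in 0 of 3. The list of blood endothelial markers gave the same counts for each of these genes, and the macrophage list was also higher in control pools 1 and 2 than in 3 and 4, so the match was not particular to stromal markers. Among controls the highest pool was nearly a tie. The stromal mean was 9.704 in control pool 1 and 9.710 in control pool 2, and the endothelial mean was 8.120 and 8.121. The counts for the highest pool rest in part on that tie. Intact-mated pool 1 had the lowest stromal mean, 8.36, and the lowest Mmp2, Timp2 and Timp3 of all 12 arrays. Vasectomized-mated pool 1 had the highest stromal mean of the mated pools, 9.27, together with the highest Mmp2, Mmp11, Timp2 and Timp3 among them. The list, of which 9 of 9 genes were measured and none was dim, had 1 marker called in intact-mated against control females, Col1a1, which was lower (log2 fold-change -0.75, limma adjusted p = 0.0434), and 0 in the other comparisons. All 9 stromal markers had a negative log2 fold-change in both mated groups against controls, with medians of -0.55 in intact-mated and -0.41 in vasectomized-mated females. At an unadjusted limma p under 0.05 there were 6 and 3 of them, beside 23.0% and 18.9% of all transcript clusters. The part of stromal, endothelial or macrophage content in these values was not tested.

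**Figure D3:**
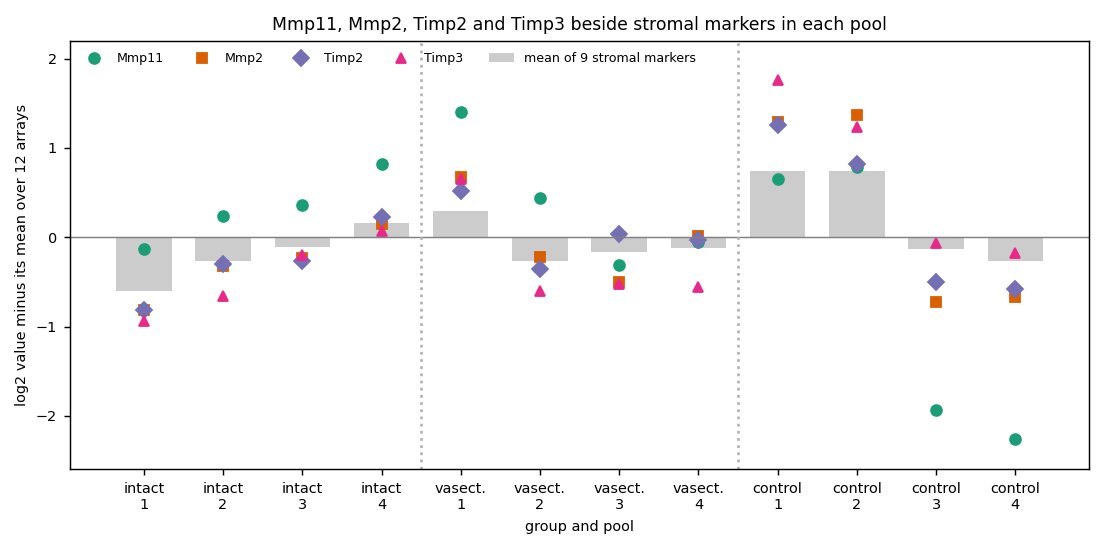
Log2 values of Mmp11, Mmp2, Timp2 and Timp3 in each of the 12 pools, each gene minus its own mean over the 12 arrays (vertical axis, log2), beside the mean of 9 stromal markers treated in the same way (bars). Control pools 1 and 2 lie above the mean over the 12 arrays in all 5 series. Control pools 3 and 4 lie below it, furthest for Mmp11. For Timp3 they are only slightly below, at 9.14 and 9.03 against a mean of 9.21, and lie among the mated pools.

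Because the controls parted in this way, log2 fold-changes were also taken without control pools 1 and 2 and without control pools 3 and 4. These pairs were chosen after the values were seen, so the shifts follow from the choice and are given as a description, with no test. Without pools 1 and 2, Mmp11 had log2 fold-changes of 2.42 in intact-mated and 2.47 in vasectomized-mated females against the remaining controls, and Mmp7 of 1.04 and 1.10. In that setting Mmp2 had 0.39 and 0.69, Timp2 0.25 and 0.58, and Timp3 -0.31 and -0.14. Without pools 3 and 4, Mmp11 had -0.40 and -0.35, Mmp2 -1.64 and -1.34, Timp2 -1.32 and -0.99, and Timp3 -1.93 and -1.76. For Mmp2, Mmp10, Mmp11, Mmp14 and Timp2 the mated means lay between those of the control pairs.

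**Figure D4:**
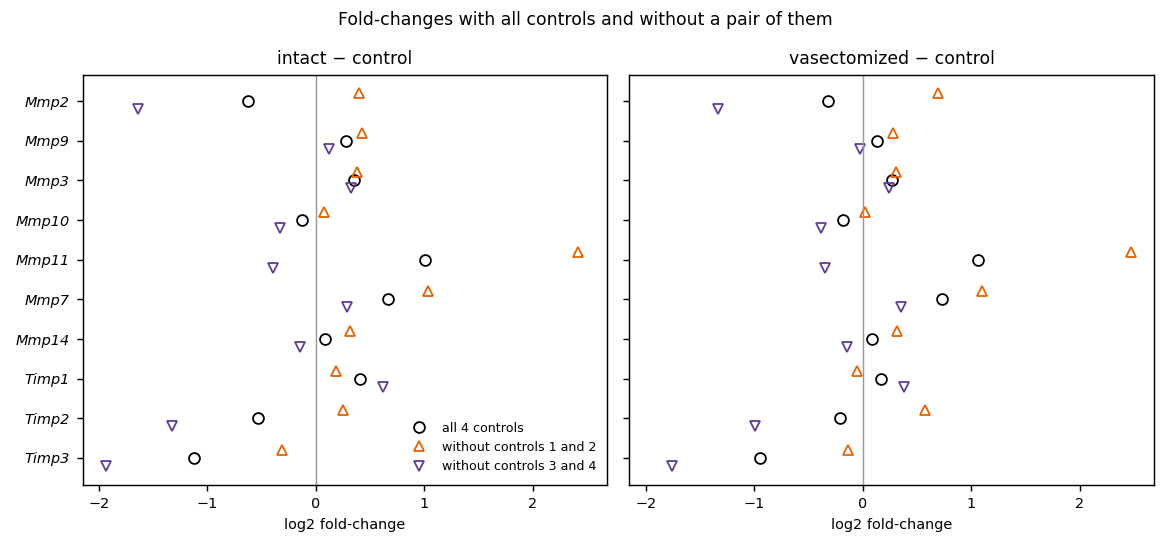
Log2 fold-change (horizontal axis) of the 10 genes in intact-mated and in vasectomized-mated against control females, with all 4 control pools (circles), without control pools 1 and 2 (orange) and without control pools 3 and 4 (purple). Mmp2, Timp2, Mmp11, Mmp10 and Mmp14 lie on opposite sides of 0 in the settings with a pair left out. In vasectomized-mated against control females Mmp9 and Timp1 do so as well. These settings were chosen after the values were seen.

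By the root mean square difference of log2 values after each gene was centred on its own mean over 12 arrays, Timp2 ranked 21 of 19937 genes nearest to Mmp2, and Timp3 ranked 126. For Timp3, Mmp2 ranked 36 and Timp2 44. For Mmp11, whose own spread about its mean was the widest (1.04), the nearest member was Mmp7 at rank 64, while Mmp2 ranked 133, Timp2 297 and Timp3 10330. The genes nearest to Mmp2 were Cped1 and the endothelial sialomucin Emcn, at 0.13 each. Aebp1 was nearest to Timp2 (0.11), Npr2, a receptor for C-type natriuretic peptide, to Timp3 (0.20) and Pamr1 to Mmp11 (0.28). These genes were named after their values were seen, since no member was called.

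Windows of Mmp11, Timp2 and Timp3 each held a GC box motif (GGGCGG on either strand, read as CCGCCC on the other). None of them held TATAAA or TGANTCA. Mmp7, whose controls also spread widely, had no GC box in its windows. Among the 8 genes with a window, a GC box was found in 5, in Mmp14 and Timp1 as well, and in 35.7% of all 32851 windows. Capitals mark the motif.
Mmp11, chr10:75932453-75932752, minus strand: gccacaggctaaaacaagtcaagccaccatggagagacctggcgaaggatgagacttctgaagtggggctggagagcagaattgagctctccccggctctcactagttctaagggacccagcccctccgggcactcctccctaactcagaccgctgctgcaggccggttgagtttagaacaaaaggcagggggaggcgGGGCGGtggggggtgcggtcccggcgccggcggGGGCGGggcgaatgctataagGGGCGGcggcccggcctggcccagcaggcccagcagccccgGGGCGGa
Timp2, chr11:118355362-118355661, minus strand: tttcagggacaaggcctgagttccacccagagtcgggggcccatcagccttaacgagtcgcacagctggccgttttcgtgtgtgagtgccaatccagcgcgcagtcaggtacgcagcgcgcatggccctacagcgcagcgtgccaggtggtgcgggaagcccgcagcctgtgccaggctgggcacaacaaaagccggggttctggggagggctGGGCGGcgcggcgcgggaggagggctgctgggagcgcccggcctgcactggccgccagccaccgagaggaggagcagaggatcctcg
Timp3, chr10:86300162-86300461, plus strand: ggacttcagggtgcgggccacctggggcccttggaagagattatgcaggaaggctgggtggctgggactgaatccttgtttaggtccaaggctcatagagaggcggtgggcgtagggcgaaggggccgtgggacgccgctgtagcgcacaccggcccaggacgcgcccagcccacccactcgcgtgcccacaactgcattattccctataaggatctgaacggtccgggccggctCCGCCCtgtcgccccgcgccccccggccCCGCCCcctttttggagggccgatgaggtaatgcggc
The GC box on the plus strand of the window occurred at 4 places in Mmp11 and 1 in Timp2, and on the minus strand at 2 places in Timp3. It was present in Mmp11, Timp2 and Timp3, whose controls were wide apart, and in Mmp14 and Timp1. It was absent from Mmp7, whose controls spread over 2.96-fold.

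Of 66 further genes of the metalloproteinase system, 60 were measured, and 5 were called in intact-mated against control females (1 higher, 4 lower), 3 in vasectomized-mated against control females (2 higher, 1 lower) and 1, higher, in intact-mated against vasectomized-mated females, where 3.49%, 1.43% and 0.796% of all transcript clusters were called. Their median log2 fold-change was -0.04, -0.09 and 0.01. Plaur, the receptor that gathers urokinase and so plasmin formation at the cell surface, was called in all 3 comparisons. It had log2 values of 8.84, 9.16, 8.77 and 8.70 in intact-mated pools, 8.16, 8.14, 7.98 and 8.20 in vasectomized-mated pools, and 7.36, 7.79, 7.23 and 7.41 in control pools, with no overlap between any 2 groups. It rose 2.67-fold in intact-mated females (log2 fold-change 1.42, SE 0.12, limma adjusted p = 2.22e-05) and 1.60-fold in vasectomized-mated females (0.67, SE 0.12, limma adjusted p = 0.0110), and it was 1.68-fold higher in intact-mated than in vasectomized-mated females (0.74, SE 0.12, limma adjusted p = 0.0130). Without control pools 3 and 4 its log2 fold-change in vasectomized-mated females was 0.55, and that call was lost.

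A2m, alpha-2-macroglobulin, a broad protease inhibitor that traps metalloproteinases, was lower in intact-mated females, with a log2 fold-change of -1.54 (SE 0.32, limma adjusted p = 0.00881). Its log2 values were 8.48, 9.0, 8.99 and 9.42 in intact-mated pools, 10.26, 9.07, 9.29 and 9.70 in vasectomized-mated pools, and 11.31, 10.69, 10.06 and 9.97 in control pools. All intact-mated pools lay under all controls, yet A2m too was highest in control pools 1 and 2. Without them its log2 fold-change was -1.04 and its call was lost. Adam12, a disintegrin and metalloprotease of mesenchymal cells, had a log2 fold-change of -1.20 in intact-mated females (SE 0.21, limma adjusted p = 0.00289) and of -0.77 in vasectomized-mated females, which did not pass (limma adjusted p = 0.0624). The matrix proteoglycan versican, Vcan, was lower in both mated groups, at -1.11 in intact-mated (SE 0.26, limma adjusted p = 0.0184) and -1.05 in vasectomized-mated females (SE 0.26, limma adjusted p = 0.0450). Lum, lumican, which orders collagen fibrils, was lower in intact-mated females at -0.97 (SE 0.20, limma adjusted p = 0.00886) and had -0.35 in vasectomized-mated females (limma adjusted p = 0.389). Without control pools 1 and 2 the log2 fold-changes of Lum and Vcan in intact-mated females were -0.69 and -0.62. Neither gene was called in that setting, while Adam12 kept its call. The Vcan call in intact-mated females was lost without intact-mated pool 1 or 2, and in limma without variance moderation (adjusted p = 0.0551). All 9 stromal markers had negative log2 fold-changes beside these genes, and the part of stromal content in them was not tested. The Vcan call in vasectomized-mated females was lost when any one of 11 of the 12 arrays was left out, all but control pool 3, with limma adjusted p up to 0.117.

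Adam8, a leukocyte and epithelial ADAM protease, was called in vasectomized-mated females, at 0.68 (SE 0.16, limma adjusted p = 0.0354), but intact-mated females had 0.56 with an adjusted p of 0.0435, under the fold threshold, and the mated groups differed by -0.11 (limma adjusted p = 0.781). The Adam8 call and the Vcan call in vasectomized-mated females were both lost in limma without variance moderation (adjusted p = 0.0873 and 0.111). Adam8 also lost its call without control pool 1, 3 or 4 and without any one of the 4 vasectomized-mated pools (limma adjusted p up to 0.0974). The collagenases Mmp8 and Mmp13 and the macrophage elastase Mmp12, named whatever their values, were dim. Mmp8 averaged 4.97, 5.02 and 4.86 in intact-mated, vasectomized-mated and control pools, Mmp13 averaged 5.81, 5.69 and 5.59, and Mmp12 averaged 6.11, 6.16 and 6.29. Timp4 averaged 6.07 ± 0.05, 6.11 ± 0.05 and 5.93 ± 0.06 (SD, n = 4), with log2 fold-changes of 0.14 and 0.18 against controls (limma adjusted p = 0.154 and 0.107). Of the 15 other Mmp genes measured and the 9 ADAMTS genes, 0 were called in any comparison in limma, with 4, 3 and 2 Mmp genes and 2, 0 and 0 ADAMTS genes at an unadjusted p under 0.05, beside 23.0%, 18.9% and 17.2% of all transcript clusters, in the intact-mated to control, vasectomized-mated to control and intact-mated to vasectomized-mated comparisons.

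**Figure D5:**
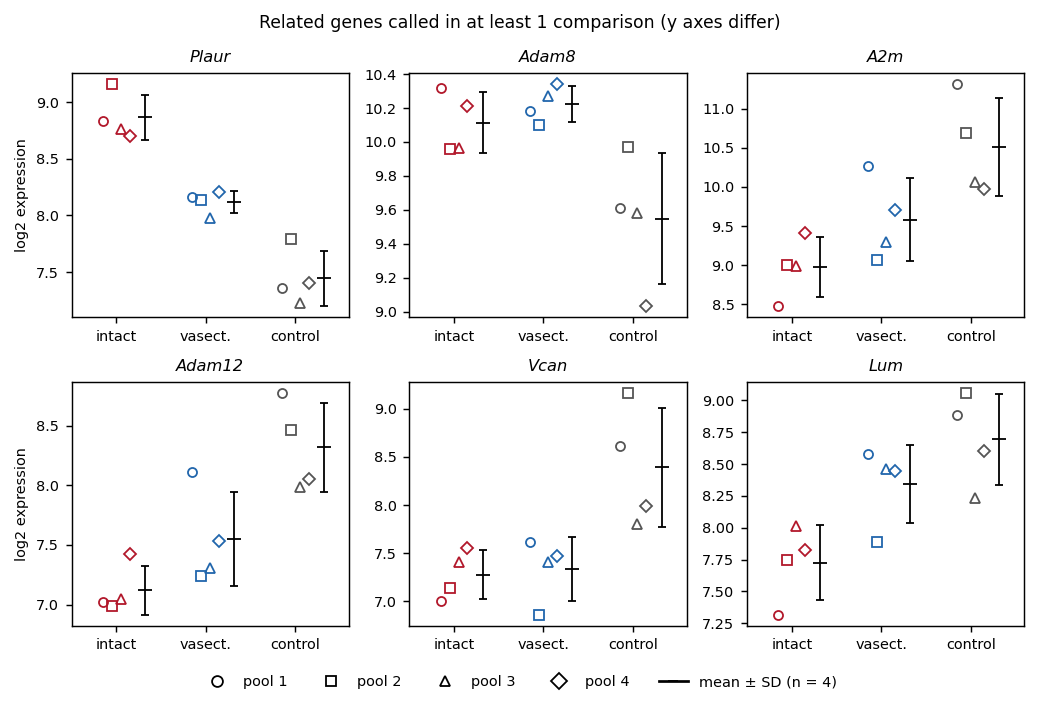
Log2 expression (vertical axis, scaled per panel) of the 6 related genes called in at least 1 comparison, in the 4 pools each of intact-mated, vasectomized-mated (vasect.) and control females. Symbols are pools and black bars are mean ± SD (n = 4), with Plaur in 3 separate groups and A2m highest in control pools 1 and 2.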

How the data were processed

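Endometrial RNA of 12 pools (300 ng per array) was measured on Affymetrix Mouse Gene 1.0 ST arrays. Using Partek Genomics Suite, the authors applied RMA background correction, corrected for probe GC content, summarized probes by their mean, and deposited the log2 values of 35556 transcript clusters. The software version is not given in the sources used here. Of these clusters 21789 had 1 gene symbol, 1621 several and 12146 none in the array annotation. Array medians lay between 7.25 and 7.32, and the values were used as deposited. Per-sample columns not used numbered 0.

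Groups came from the sample titles. Group means were fitted to each cluster in limma 3.58.1 under R 4.3.3 (prior degrees of freedom 3.26, residual 9), without a trend, and p-values were corrected over all clusters by Benjamini-Hochberg. The thresholds for calls (1.5-fold, 0.05) follow the methods. A gene was read from its single-symbol cluster with the highest mean. The code was tested on simulated data. The number of arrays limits the precision, and array values do not rank one gene's abundance against another's.

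The members and lists were chosen with earlier results of these data known. Genes named were all members, listed related genes called in any comparison, Mmp8, Mmp12, Mmp13 and Timp4. The rule also took in the genes nearest to a called member (none was called) and the cell type markers that lead each list. It did not cover Csf3r, Ly6g, Ngp, Camp, Mpo, Elane, Cldn7 and Col1a1, which were named with their values known. Other genes outside the rule are marked where they appear. Alternatives were a plain ANOVA fit, trend and robust moderation, quantile normalization, median centring, removal of dim clusters, the 2 groups alone, array weights, a replicate block, correction over single-symbol genes, other fold thresholds and each array left out. A second-brightest cluster per gene could not be tried, since each member had 1. Leaving out pairs of controls was added after seeing the data.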

Additional observations from a re-analysis of the deposited data

Results flagged for a closer look

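Among 60 sets of 4 pools examined for the 10 genes and 10 related genes, 2 held a pool far from the other 3 by Dixon's criterion, and chance alone gives about 1 in 20. Timp3 was 9.86 in vasectomized-mated pool 1, where the other 3 vasectomized-mated pools lay between 8.60 and 8.69. Adam12 was 7.42 in intact-mated pool 4, where the other 3 intact-mated pools lay between 6.99 and 7.05. The stromal marker mean was the highest of its group in both of these pools, at 9.27 and 9.13, and its part in the values was not tested.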

How the results depend on the processing

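Counts of the 10 genes called were 0 in every comparison under each alternative that kept at least 3 pools a group, other than leaving out control pool 2, which gave 1 gene higher (Mmp7) in intact-mated and in vasectomized-mated against control females, so that leaving out single arrays gave 0 to 1 higher and 0 lower. Without dim clusters 7 of the 10 genes remained to be tested. With the pairs of controls chosen after the values were seen, the counts follow from the choice and are no test. Without control pools 1 and 2 there were 2 genes higher in each mated group, and without control pools 3 and 4 there were 1 higher and 3 lower in intact-mated and 2 lower in vasectomized-mated females against controls. Related genes called in intact-mated against control females numbered 10 with no fold threshold, 9 without control pools 1 and 2, 10 without control pools 3 and 4, and 4 to 7 when single arrays were left out. A2m, Lum and Vcan were not among those called without control pools 1 and 2. In vasectomized-mated against control females they numbered 1 in the plain ANOVA fit, with only the 2 groups compared, with the replicate block and at 2-fold, 5 with no fold threshold and without either pair of controls, and 1 to 3 when single arrays were left out. They numbered 1 without control pool 1 or 4 and without vasectomized-mated pool 2, 3 or 4. Between the mated groups they numbered 2 with no fold threshold and without control pools 1 and 2, and 0 at 2-fold. The causes were not tested.

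Of 681 alternative values of the 10 genes, 638 kept the direction and the side of the threshold, 12 became called and 31 changed sign. Without control pools 1 and 2 the log2 fold-change in intact-mated against control females was 0.077 for Mmp10, 0.39 for Mmp2 and 0.25 for Timp2. Without control pools 1 and 2 the log2 fold-change in vasectomized-mated against control females was 0.019 for Mmp10, 0.69 for Mmp2, -0.053 for Timp1 and 0.58 for Timp2. Without control pools 3 and 4 the log2 fold-change in intact-mated against control females was -0.40 for Mmp11 and -0.15 for Mmp14. Without control pools 3 and 4 the log2 fold-change in vasectomized-mated against control females was -0.35 for Mmp11, -0.15 for Mmp14, -0.026 for Mmp9 and -0.80 for Plat. With array weights the log2 fold-change in intact-mated against vasectomized-mated females was 0.026 for Mmp11. With single arrays left out, the log2 fold-changes that changed sign in intact-mated against control females ran between -0.21 and 0.0063 for Mmp10 and between -0.011 and 0.17 for Mmp14. With single arrays left out, the log2 fold-changes that changed sign in vasectomized-mated against control females ran between -0.021 and 0.16 for Mmp14, between -0.67 and 0.029 for Mmp2 and between -0.48 and 0.13 for Timp2. With single arrays left out, the log2 fold-changes that changed sign in intact-mated against vasectomized-mated females ran between -0.28 and 0.29 for Mmp11, between -0.067 and 0.11 for Mmp14, between -0.029 and 0.16 for Mmp3, between -0.18 and 0.015 for Mmp7 and between -0.34 and 0.13 for Timp3. Numbers in the labels were not taken to pair the pools. Deviations of same-numbered pools correlated between -0.26 and 0.20, which cannot exclude a pairing with 4 pools a group. The replicate block called 0 of the 10 genes in each comparison. With 4 pools a group, wide spread among controls limits what Mmp2, Mmp11, Timp2 and Timp3 can show.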

Other observations

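Mmp23, a membrane-anchored metalloproteinase known from ovary and other reproductive tissue, was named after its values were seen. It averaged 10.27 ± 0.05 in intact-mated, 10.27 ± 0.05 in vasectomized-mated and 9.78 ± 0.19 in control pools (SD, n = 4), and all 8 mated pools lay above all 4 controls. Its log2 fold-changes of 0.49 and 0.49 passed the adjusted p (limma adjusted p = 0.00296 and 0.00766) but not the 1.5-fold threshold, and they were 0.62 and 0.63 without control pools 1 and 2 and 0.35 and 0.35 without control pools 3 and 4. Plat, tissue plasminogen activator, also named after its values were seen, had log2 values of 9.90, 10.40, 9.87 and 9.93 in intact-mated pools, 8.97, 8.87, 9.06 and 9.82 in vasectomized-mated pools, and 9.13, 10.83, 7.33 and 7.0 in control pools. All intact-mated pools were above all vasectomized-mated pools, but at a log2 difference of 0.85 (SE 0.65) the limma adjusted p was 0.551. Its log2 fold-change in intact-mated against control females was 1.45 with all controls (limma adjusted p = 0.202) and 2.21 without control pool 2 (limma adjusted p = 0.00656), the one single array whose removal brought a call. It was 0.041 without control pools 3 and 4 and 2.86 without control pools 1 and 2.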
